A study of Mus musculus with 4 samples.

Results

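Spic and 6 other genes of the ETS family of transcription factors, Spi1, Ets1, Ets2, Elf1, Elk3 and Fli1, were followed across 4 populations of myeloid cells from the mouse large intestine. All probe sets that name 1 of these 7 genes, and no other gene, in the platform's probe table were taken, which gave 14 of the 20380 single-gene probe sets and 7 of 12393 genes. The cells came from the lamina propria of C57BL/6J mice, and a single Affymetrix 3' array was run for each population. CX3CR1high macrophages carried CD11c, CD11b and much of the fractalkine receptor CX3CR1, while CX3CR1- cells carried CD11c and CD11b but lacked CX3CR1. CD11b+ cells lacked CD11c, and their sample title calls them only Mf. CD11chigh dendritic cells (DCs) lacked CD11b, and their sample title is CD103. No treatment or genetic change is given for any population, and neither the age of the mice nor the number pooled per array is stated in the labels. The labels set the series on the expression of Spi-C in the CX3CR1high macrophages.

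ETS factors share a DNA-binding domain, the ETS domain, that recognises a short core, GGAA, and the flanking bases and partner proteins set which sites a given factor uses. PU.1, encoded by Spi1, is needed for the formation of macrophages and many other myeloid cells, and it binds composite sites together with IRF4 or IRF8. Spi-C is its close relative and is needed for the red pulp macrophages of the spleen, which recycle iron from red cells. The Spic gene is repressed by BACH1, a protein that is degraded when heme builds up. ETS1 and FLI1 are best known from lymphoid, blood-forming and endothelial cells, ETS2 is a close relative of ETS1, and ELK3 acts with the serum response factor SRF.

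Promoter windows from RefSeq (build GRCm38.p6), running from 250 bases before to 50 after a transcript start, were at hand for 4 of the 7 genes. Those of Spic, Ets2 and Elk3 are shown, because the DC signals of these 3 genes lay at least 2-fold below those of the CX3CR1high macrophages. Capitals mark the ETS core, GGAA on either strand (TTCC is its reverse complement). Spic is on the minus strand at chr10:88682974-88683273, Ets2 on the plus strand at chr16:95702157-95702456 and Elk3 on the minus strand at chr10:93311110-93311409.
Spic: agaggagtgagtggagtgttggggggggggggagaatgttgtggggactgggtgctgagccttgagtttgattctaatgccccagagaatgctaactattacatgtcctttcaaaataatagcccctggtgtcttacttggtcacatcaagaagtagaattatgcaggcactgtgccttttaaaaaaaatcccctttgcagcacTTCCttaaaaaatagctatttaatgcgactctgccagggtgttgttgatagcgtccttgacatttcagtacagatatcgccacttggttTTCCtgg
Ets2: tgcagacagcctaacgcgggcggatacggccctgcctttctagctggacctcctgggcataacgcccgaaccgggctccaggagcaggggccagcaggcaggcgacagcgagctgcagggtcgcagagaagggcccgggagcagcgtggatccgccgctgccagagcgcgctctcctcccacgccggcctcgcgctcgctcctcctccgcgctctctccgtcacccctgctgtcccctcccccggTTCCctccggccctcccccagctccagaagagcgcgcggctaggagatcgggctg
Elk3: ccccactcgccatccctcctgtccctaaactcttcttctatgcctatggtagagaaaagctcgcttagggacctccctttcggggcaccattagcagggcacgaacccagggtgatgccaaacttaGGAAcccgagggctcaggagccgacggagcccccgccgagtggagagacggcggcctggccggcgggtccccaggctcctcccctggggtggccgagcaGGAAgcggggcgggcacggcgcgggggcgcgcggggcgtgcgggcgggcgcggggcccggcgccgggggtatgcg
The Spic window held 2 ETS cores, that of Elk3 2 and that of Ets2 1. An ETS core is found in 96.0% of 32851 such windows of the genome, so its presence sets none of the 3 apart. The longer PU box GAGGAA (28.3% of windows), the ETS site CCGGAAGT (3.89%) and the element GCTGAGTCA (0.454%), a type bound by Maf and BACH proteins, were searched on both strands. The PU box holds an ETS core, as does the CCGGAAGT site. None of these 3 longer motifs matched in the windows of the 4 genes. The Spic window had 45% G and C, against 71.7% in that of Ets2 and 71.3% in that of Elk3.

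Values are signals in linear intensity units, and the arrays share a common trimmed mean from the authors' scaling. A floor was taken at 102.9, the pooled median of the non-control probe sets. Where 1 of 2 signals lies under it the ratio is only a lower bound, marked by "at least", and the call limit was 2-fold in either direction. Where a gene has several probe sets, the one with the highest mean log2 signal stands for it, with sets ending in _x_at used last. There are no replicates, hence no test and no replicate error, and precision is limited by the number of arrays. Different probe sets of a gene gave log2 ratios with an SD of 0.31 to 0.52 over the 6 pairs of arrays. This is below the log2 value of 1 needed for a call, but it holds no difference between mice or collections. Only probe sets that reached the floor on both arrays of a pair entered the SD, so sets of Ets1 and Elk3 under the floor did not. In bulk RNA, fewer cells of a type and less RNA per cell cannot be told apart. Median signals were 88.5 in the DCs and 103.2 to 110.2 in the other populations. The 3' over 5' ratio of the Gapdh control, a measure that rises with RNA breakdown, was 1.08 (CX3CR1high macrophages), 2.17 (CD11b+ cells), 3.40 (CX3CR1- cells) and 0.791 (DCs). The Actb control gave 1.68, 3.18, 2.76 and 1.11 in the same order, so the controls differ on which of the CD11b+ and CX3CR1- arrays is highest. Itgax, which encodes CD11c, stood at 1864 in the CD11b+ cells, although these were gated as lacking CD11c, and at 1826 in the CX3CR1high macrophages. Of the 4 genes listed for the gates (Itgax, Itgam, Cx3cr1 and Itgae), 3 had a ratio between these populations. There 1 was called higher in the CX3CR1high macrophages and 0 lower, beside 4.66% and 5.83% of all genes. Over the CX3CR1- cells 1 was higher and 2 lower of 4, beside 8.56% and 6.54%. Over the DCs 2 were higher and 2 lower of 4, beside 17.4% and 10.2%.

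The 7 genes fell into different patterns, with Spic highest in the CX3CR1high macrophages, Spi1 and Elf1 nearly even, Ets2, Ets1 and Elk3 low in the DCs, and Fli1 highest in the DCs. Of the 14 probe sets, 8 were above the floor on all 4 arrays, 3 on some of them and 3 on none. The 3 under the floor throughout were 1422027_a_at and 1422028_a_at of Ets1 and 1417662_at of Elk3.

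**Figure D1:**
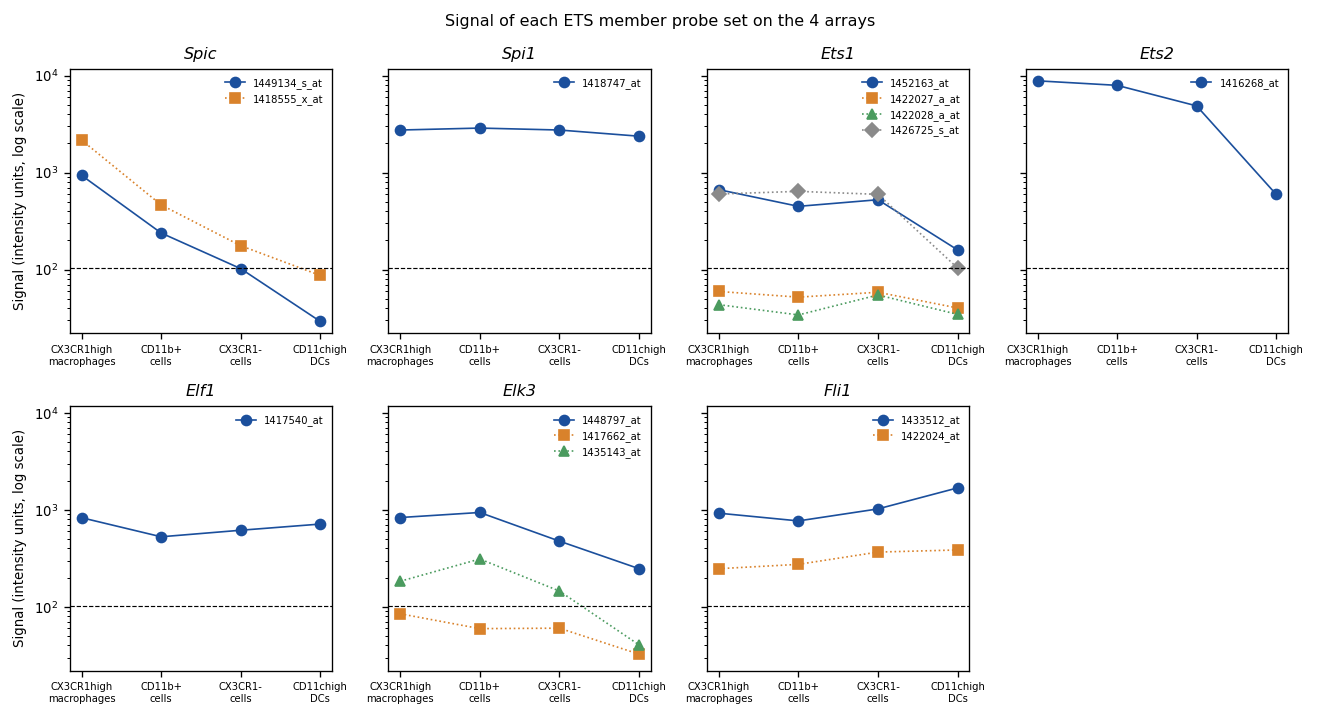
Signal (intensity units, log scale) of each of the 14 probe sets of the 7 ETS genes on the array of each population. Points are single arrays, lines only join the points of 1 probe set, solid blue marks the probe set that stands for the gene, and the dashed line is the floor of 102.9. Both Spic probe sets are highest in the CX3CR1high macrophages, and Spi1 stays between 2374 and 2878.

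Both Spic probe sets were highest in the CX3CR1high macrophages and read lowest in the DCs. The probe set that stands for the gene, 1449134_s_at, gave 936 (CX3CR1high macrophages), 239 (CD11b+ cells), 102 (CX3CR1- cells) and 29.2 (DCs). The last pair were under the floor, the CX3CR1- cells only just. On the second set, 1418555_x_at, the signals in the same order were 2163, 464, 176 and 87.1. All steps of the order, from CX3CR1high macrophages to CD11b+ cells to CX3CR1- cells, were over 2-fold on both sets, while the last step, to the DCs, was at least 1.72-fold on the second set and could not be measured on the first.

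The first step was 3.93-fold on the first set and 4.66-fold on the second. Among 6628 genes measured on both sides of that pair, the log2 ratio of Spic, 1.97, ranked 44 from the highest, so that 99.3% of genes lay below it. From the CD11b+ to the CX3CR1- cells the ratio was at least 2.32-fold on the first set and 2.63-fold on the second. The CX3CR1high macrophages stood at least 9.10-fold above the CX3CR1- cells and the DCs on the first set, and 12.3-fold and at least 21.0-fold on the second. The suffixes _s_at and _x_at mark sets whose probes may also match other transcripts, so neither measures Spic by probes known to be its own.

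Marker lists also differed between the arrays, and their part in the Spic ratio was not tested. For the CX3CR1high macrophages, 13 of 13 measured epithelial markers were at least 2-fold higher over the CD11b+ cells, beside 4.66% of all genes. It was 9 of 13 over the CX3CR1- cells (8.56% of all genes) and 10 of 13 over the DCs (17.4%), with 0 lower throughout. The summed signal of the 13 was 21207 (CX3CR1high macrophages), 3296 (CD11b+ cells), 8184 (CX3CR1- cells) and 4744 (DCs). Of these markers none was at 0, and in each of the 3 other populations 3 were under the floor. The 10 macrophage markers summed to 154688, 85536, 65387 and 13119 in the same order of populations.

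Spi1, whose product PU.1 is the family member that macrophages and many DCs depend on, was nearly even over the populations. Its single probe set gave 2748 (CX3CR1high macrophages), 2878 (CD11b+ cells), 2749 (CX3CR1- cells) and 2374 (DCs). The highest stood 1.21-fold over the lowest, and neighbours in the order were at most 1.16-fold apart. Spib, the remaining gene of the same subfamily and known from B cells and plasmacytoid DCs, was near or under the floor, at 55.6, 80.4, 130 and 115 in the same order. Of the 3 related genes, then, only Spic was called in any of the 6 pairs.

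Ets2 had the largest ratio measured on both sides of the floor among the 7 genes. It stood at 8835 (CX3CR1high macrophages), 7938 (CD11b+ cells), 4873 (CX3CR1- cells) and 597 (DCs). The first 3 signals lay within 1.81-fold of each other, and the DCs were 14.8-fold, 13.3-fold and 8.17-fold lower. Of the genes measured on both sides, 99.3%, 99.2% and 99.4% had smaller ratios over the DCs in these 3 pairs. The gene has a single probe set on the array, so no second reading of it was possible.

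Ets1 was also lowest in the DCs, but on a pair of readable probe sets that differ in size. Set 1452163_at gave 667 (CX3CR1high macrophages), 449 (CD11b+ cells), 525 (CX3CR1- cells) and 160 (DCs). Set 1426725_s_at gave 602, 641, 597 and 104. On both, the 3 CD11b-positive populations were at most 1.48-fold apart, and the DCs were lower by 2.81-fold to 4.17-fold on the first and by 5.74-fold to 6.17-fold on the second. The mean over all 4 Ets1 sets, which includes the pair under the floor, left none of these ratios at 2-fold. Ets1 is high in T cells, and the T-cell receptor complex genes Cd3d, Cd3e, Cd3g and Cd247 were under the floor on all arrays, as were Ncr1 and Gata3, so 6 of the 11 measured lymphoid markers were not readable anywhere. The summed signal of the 11 was 3351, 2495, 8116 and 1717, with none at 0. Il7r alone gave 7311 of the sum in the CX3CR1- cells. Over the DCs, 2 of 5 lymphoid markers with a ratio were higher in the CX3CR1high macrophages, beside 17.4% of all genes. It was 1 of 4 for the CD11b+ cells (17% of all genes) and 2 of 5 for the CX3CR1- cells (13.7%), with 0 lower throughout. The part of lymphoid cells in the Ets1 ratios was not tested.

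Elk3, a cofactor of SRF that can repress its targets, was also lowest in the DCs, with smaller steps. Set 1448797_at gave 833 (CX3CR1high macrophages), 939 (CD11b+ cells), 476 (CX3CR1- cells) and 248 (DCs). The DCs were 3.36-fold below the CX3CR1high macrophages and 3.79-fold below the CD11b+ cells, while the CX3CR1- cells lay between, 1.92-fold above the DCs and 1.97-fold below the CD11b+ cells. Neither of these last ratios reached 2-fold, so no neighbours in the order were set apart on this set. Set 1435143_at kept the order, with 311 (CD11b+ cells), 183 (CX3CR1high macrophages), 146 (CX3CR1- cells) and 40.6 (DCs). There the CD11b+ cells were 2.14-fold above the CX3CR1- cells, past the call limit. Over the DCs that set gave at least 1.78-fold for the CX3CR1high macrophages and at least 3.03-fold for the CD11b+ cells.

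Elk3 and Ets1 are also found in endothelium and fibroblast-rich tissue, so markers of these cells were read beside them. The 10 endothelial markers summed to 1962, 1539, 1510 and 1111 in the order used above, with Tie1 and Egfl7 under the floor on all arrays. The 8 fibroblast markers summed to 16322, 64573, 22215 and 5099. No marker of either list was at 0, and both lists were lowest in the DCs. Their part in the Ets1, Ets2 and Elk3 ratios was not tested.

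Fli1 ran the other way and was highest in the DCs. Set 1433512_at gave 923 (CX3CR1high macrophages), 769 (CD11b+ cells), 1022 (CX3CR1- cells) and 1682 (DCs). The DCs were 2.19-fold above the CD11b+ cells, 1.82-fold above the CX3CR1high macrophages and 1.65-fold above the CX3CR1- cells. Set 1422024_at gave 247, 274, 367 and 386, so the DCs were again highest, but only 1.41-fold above the CD11b+ cells. The call for Fli1 therefore rests on 1 of its 2 probe sets.

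Elf1, a factor of lymphoid and myeloid blood cells, did not reach 2-fold in any pair. Its signals were 829 (CX3CR1high macrophages), 527 (CD11b+ cells), 616 (CX3CR1- cells) and 713 (DCs). The highest was 1.57-fold above the lowest, and each step of the order was at most 1.17-fold.

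Counted per pair, calls among the 7 genes were few between the 3 CD11b-positive populations and more frequent against the DCs. All genes showed the same contrast, and 1 call of 7 in each pair without the DCs is near their share. Against the CD11b+ cells 1 of the 7, Spic, was higher in the CX3CR1high macrophages and 0 were lower, where 4.66% of 7512 genes were higher and 5.83% lower (10.5% in either direction). Against the CX3CR1- cells it was again Spic alone, beside 8.56% of genes higher and 6.54% lower (15.1% together). The CD11b+ cells over the CX3CR1- cells also gave Spic alone, beside 5.19% and 3.55% (8.74% together). Over the DCs, 4 of the 7 were higher in the CX3CR1high macrophages (Spic, Ets1, Ets2 and Elk3) and 0 lower, where 17.4% of all genes were higher and 10.2% lower (27.5% together). The CD11b+ cells over the DCs had the same 4 higher and Fli1 lower, beside 17% and 10.4% (27.4% together). The CX3CR1- cells over the DCs had 2 of 6 genes higher, Ets1 and Ets2, and 0 lower, beside 13.7% and 8.7% (22.4% together), with Spic under the floor in both. These pairs share arrays, so the calls against the DCs are not separate readings of the DC array.

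The median log2 ratio of the 7 genes was 0.26 over the CD11b+ cells, 0.43 over the CX3CR1- cells and 1.75 over the DCs for the CX3CR1high macrophages. Over all genes the same medians were -0.02, 0.02 and 0.02. For the CD11b+ cells the members' median was 0.07 over the CX3CR1- cells and at least 1.21 over the DCs. The latter is the ratio of Spic, a lower bound, and the median was 1.49 with the floor at the 25th percentile or with none. For the CX3CR1- cells the members' median was 0.58 over the DCs, on 6 genes, since Spic was under the floor in both. That median was 0.94 with the floor at the 25th percentile or with none, and 0.07 with the lowest probe set. All genes gave 0.06, 0.07 and 0.04 in these 3 pairs. The medians over the DCs depend on the floor and the probe set chosen: 1.75 became 0.56 with the floor at the 75th percentile, 0.80 with the mean over a gene's sets, 0.98 without sets of shared types and 0.22 with the lowest set, and 1.21 went as low as 0.28. The DC array has the lowest median signal. When all arrays were brought to the same median, the medians of all genes over the DCs moved to -0.27, -0.22 and -0.16, and Spi1 then lay slightly on the other side of 0 in all 3 pairs with the DCs, as did Elf1 for the CX3CR1high macrophages, all within 2-fold. The calls of Spic, Ets1, Ets2 and Elk3 over the DCs held at equal medians, and Fli1 became 2-fold higher in the DCs than in the CX3CR1high macrophages too, at a log2 ratio of -1.17.

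**Figure D2:**
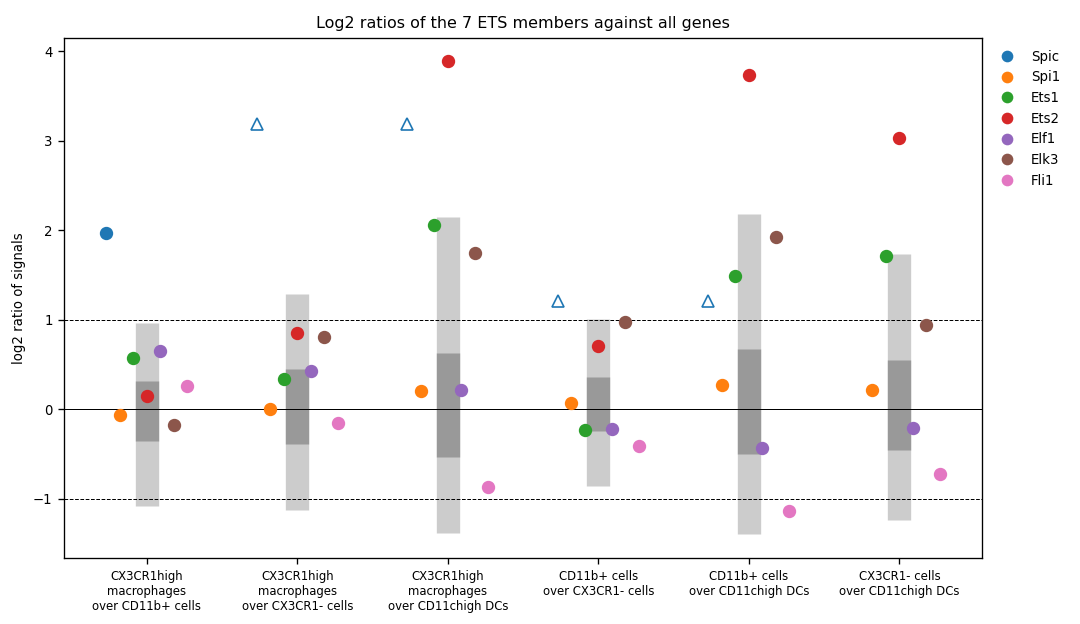
Log2 ratio of signals of the 7 ETS genes in each of the 6 pairs of populations, 1 array each. Dark bars span the 25th to 75th percentile and light bars the 5th to 95th percentile of all genes with a ratio, open triangles are lower bounds, and dashed lines mark 2-fold. Ets2 lies at 3.89, 3.73 and 3.03 in the pairs with the DCs, and Spi1 stays near 0 throughout.

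Of 19 further ETS genes, 17 were measured by a probe set of their own symbol, and 9 of these passed the floor on at least 1 array. Elf4, Elf5, Elk1, Erg, Etv2, Etv4, Etv5 and Spdef were under the floor on all 4 arrays on the probe set that stands for them. The repressor gene Etv6 was highest in the DCs, with signals of 774 (DCs), 331 (CX3CR1- cells), 236 (CX3CR1high macrophages) and 216 (CD11b+ cells). The DCs were 2.34-fold, 3.28-fold and 3.58-fold above these. Like Fli1, it was thus read highest in the population where Ets2, Ets1 and Elk3 were lowest.

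Etv3, which also encodes a repressor, was highest in the CX3CR1- cells. Its signals were 8749 (CX3CR1- cells), 6607 (DCs), 5515 (CX3CR1high macrophages) and 3968 (CD11b+ cells). The CX3CR1- cells were 2.21-fold above the CD11b+ cells, and 2.47-fold on a second probe set. No other pair of populations was set apart on the first set.

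Elf3 and Ehf are known from epithelium. Elf3 stood at 406 (CX3CR1high macrophages), 85.1 (CD11b+ cells), 156 (CX3CR1- cells) and 116 (DCs). The CX3CR1high macrophages were at least 3.94-fold above the CD11b+ cells. The Elf3 ratio was 2.60-fold against the CX3CR1- cells and 3.49-fold against the DCs, on the array where the epithelial sum given above was highest. Ehf was highest in the CX3CR1- cells instead, with signals of 385 (CX3CR1- cells), 204 (CX3CR1high macrophages), 71.5 (CD11b+ cells) and 49.8 (DCs). Whether epithelial RNA gave these signals was not tested. Elf2, Elk4, Erf, Gabpa and Spib were under 2-fold in all pairs.

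Counted as for the 7 genes, the further family members had 1 higher and 0 lower of 8 with a ratio between the CX3CR1high macrophages and the CD11b+ cells. Over the CX3CR1- cells it was 1 higher and 0 lower of 9, and over the DCs 1 higher and 1 lower of 9. In these 3 pairs the higher one was Elf3, and the lower one was Etv6. Over all genes 10.5%, 15.1% and 27.5% were at least 2-fold apart in these pairs. The counts in these 3 pairs lie near or below those shares. For the CD11b+ cells over the CX3CR1- cells, 0 were higher and 2 lower of 9 (Etv3 and Ehf), beside 5.19% and 3.55% of all genes. Over the DCs the CD11b+ cells had 0 higher and 1 lower of 8, beside 17% and 10.4%. The CX3CR1- cells had 1 higher and 1 lower of 9 over the DCs, beside 13.7% and 8.7%. The median log2 ratio of the further members over the DCs was -0.16 for the CX3CR1high macrophages.

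**Figure D3:**
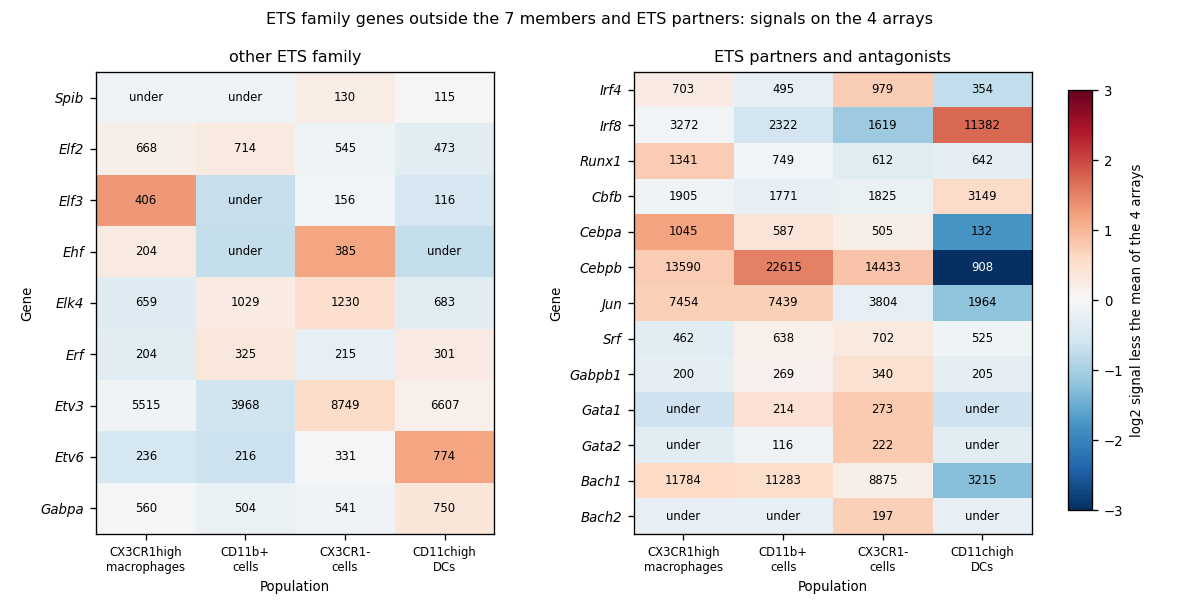
Signals of 9 further ETS genes (left) and 13 partners and antagonists of ETS factors (right) that passed the floor on at least 1 array, 1 array per population. Numbers are signals in intensity units, "under" is under the floor of 102.9, and colour is the log2 floored signal less the mean of the 4 arrays. Etv6 and Irf8 are highest in the DCs, and Cebpb, Cebpa and Jun are lowest there.

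Partners of PU.1 differed between populations where Spi1 did not reach 2-fold. Irf8, whose product pairs with PU.1 and is needed for one branch of DCs, had signals of 11382 (DCs), 3272 (CX3CR1high macrophages), 2322 (CD11b+ cells) and 1619 (CX3CR1- cells). The DCs were 3.48-fold, 4.90-fold and 7.03-fold above these. Irf4, the alternative partner, was highest in the CX3CR1- cells (979) and lowest in the DCs (354), 2.76-fold apart. The CX3CR1high macrophages (703) and CD11b+ cells (495) lay between.

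The C/EBP factors, which act with PU.1 in macrophages, were low in the DCs. Cebpb stood at 13590 (CX3CR1high macrophages), 22615 (CD11b+ cells), 14433 (CX3CR1- cells) and 908 (DCs). The DCs were 14.97-fold, 24.9-fold and 15.9-fold lower. Cebpa followed with 1045, 587, 505 and 132, and the CX3CR1high macrophages were 7.92-fold above the DCs. Runx1, whose product is a partner of ETS1 and lies upstream of Spi1 in blood formation, gave 1341 in the CX3CR1high macrophages and 612 to 749 elsewhere, but its further probe sets had other orders.

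Bach1, which encodes the heme-sensitive repressor of Spic, was also lowest in the DCs. It stood at 11784 (CX3CR1high macrophages), 11283 (CD11b+ cells), 8875 (CX3CR1- cells) and 3215 (DCs). The first 3 were within 1.33-fold of each other, where Spic spanned at least 9.10-fold, and the DCs were 2.76-fold to 3.67-fold lower. These are transcript signals and do not measure the BACH1 protein, on which heme acts.

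Counts of the whole partner list were 0 higher and 1 lower of 12 with a ratio for the CX3CR1high macrophages over the CD11b+ cells, 3 higher and 2 lower of 13 over the CX3CR1- cells, and 5 higher and 1 lower of 10 over the DCs. Of all genes 4.66% were higher and 5.83% lower in the first pair, 8.56% and 6.54% in the second, and 17.4% and 10.2% in the last. Over the DCs the 5 were Cebpb, Cebpa, Jun, Bach1 and Runx1, and the 1 lower was Irf8.

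Target genes were read from a list of 17 myeloid genes that PU.1 is known to act on, 16 of them measured. Although Spi1 was nearly even, 11 of 16 were higher and 0 lower when the CX3CR1high macrophages were set against the DCs, with a median log2 ratio of 2.46. Over the CX3CR1- cells 8 of 16 were higher and 0 lower (median 0.99), and over the CD11b+ cells 1 of 16, Adgre1, was higher and 0 lower (median 0.18). The shares of all genes that were higher in these pairs were 17.4%, 8.56% and 4.66%, and 1 of 16 is near the last. The scavenger receptor Msr1 stood at 3184 in the CX3CR1high macrophages and 140 in the DCs, a ratio of 22.7-fold. The Fc receptor genes Fcgr3 (11992 against 608) and Fcgr1 (2989 against 152) were 19.7-fold and 19.6-fold higher. Adgre1, which encodes F4/80, was 11.7-fold higher over the DCs, 3.54-fold over the CX3CR1- cells and 2.39-fold over the CD11b+ cells. The list holds macrophage markers by its nature and was chosen with earlier results of these arrays known, so its direction is no independent evidence.

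Genes known from red pulp macrophages and heme handling stood beside Spic in the CX3CR1high macrophages. Of 7 measured genes, 6 were higher over the CD11b+ cells, 6 over the CX3CR1- cells and 7 over the DCs, with 0 lower, beside 4.66%, 8.56% and 17.4% of all genes higher, and the same caution holds. Vcam1, an adhesion molecule of red pulp macrophages, had signals of 7843, 2661, 1847 and 530 in the CX3CR1high macrophages, CD11b+ cells, CX3CR1- cells and DCs, an order shared with Spic. Slc40a1, the iron exporter, had 2422, 306, 354 and 83.3, and so did not separate the CD11b+ from the CX3CR1- cells.

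Each of the 7 genes was then set against other genes by pattern. Likeness was the Euclidean distance between log2 floored signals over the 4 arrays, each gene less its own mean. It was taken among 7746 genes above the floor on at least 1 array, with Riken, predicted and accession-type names left out. The nearest to Spic were Atp1b1 (distance 0.38), which encodes a subunit of the sodium pump, the RNA sensor gene Tlr7 (0.41), Cd28 (0.45), the ribonuclease gene Ang (0.53) and B3galnt1 (0.61). Tlr7 had signals of 864, 275, 137 and 28.7 in the CX3CR1high macrophages, CD11b+ cells, CX3CR1- cells and DCs. Cd28 had 732, 289, 96.3 and 38.6, and Atp1b1 1790, 571, 285 and 240.

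The 7 heme and red pulp genes were spread widely by this distance: Hpgds ranked 6, Blvrb 44, Vcam1 108 and Slc40a1 189, but Hmox1 ranked 1314, Slc11a1 1341 and Cd163 2400. The 13 epithelial markers ranked from 25 (Slc26a3) and 30 (Krt20) to 2961 (Cldn7) and 6901 (Cdh1). The 10 macrophage markers ranked from 105 (Cd68) and 120 (Adgre1) to 2400 (Cd163) and 7554 (Mrc1). The other ETS members ranked from 610 (Elk3) to 6414 (Fli1). Signals under the floor count as equal, which brings together genes that are low in the CX3CR1- cells and DCs whatever their true order there.

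**Figure D4:**
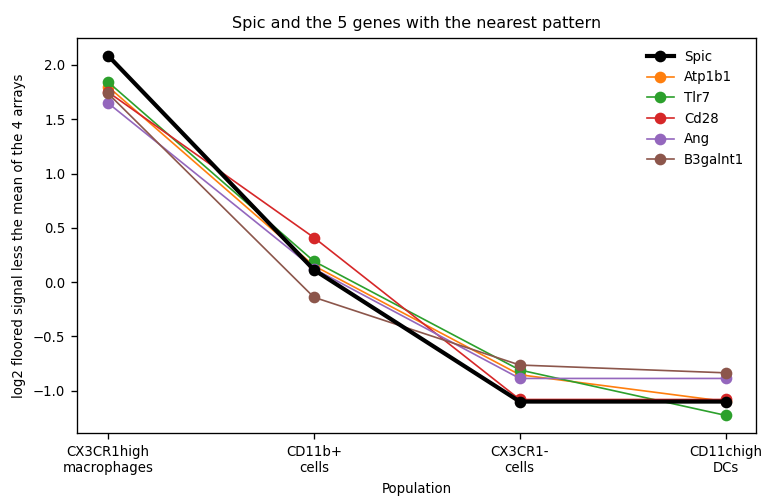
Log2 floored signal less the mean of the 4 arrays for Spic (black) and the 5 genes nearest to it, 1 array per population. Lines only join the points of 1 gene, and signals under 102.9 were set to the floor. All 6 genes are highest in the CX3CR1high macrophages and second in the CD11b+ cells.

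For the other members the nearest genes were closer. Jun, whose product joins with ETS factors at shared sites, was among the 3 nearest to Elk3 (distance 0.15), after Gas7 (0.06) and Rnf185 (0.13). Its signals were 7454, 7439, 3804 and 1964, and the CX3CR1high macrophages stood 3.80-fold above the DCs. Fcgr3 was among the nearest to Ets2 (0.39), between Xdh (0.36) and Clec4a2 (0.40). Slc12a2 (0.17), Fas (0.19) and Ifih1 (0.19) were nearest to Ets1. Cbarp (0.03), Mrps25 (0.05) and Sh3bgrl (0.07) were nearest to Fli1. Around Spi1 lay Ddx5 (0.05), Rcor1 and Tm9sf3 (0.06 each), and around Elf1 Spag7 (0.07), Ipo7 and Mrpl37 (0.08 each). Spi1 and Elf1 were nearly even, but small distances were not particular to them, with Cbarp 0.03 from Fli1 and Gas7 0.06 from Elk3.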

How the data were processed

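RNA of 4 sorted populations was labelled with biotin and hybridised to 1 Affymetrix 3' array each, per the labels' protocols. What the authors deposited is 1 linear signal intensity for every probe set. The submitters' processing notes name MAS5 for this step, and no version was given. Each array's mean with 2% trimmed from both ends was 500.3, and the lowest signal was 1. The signals were used on the authors' scale.

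Of 22690 probe sets, 64 were controls, 691 named several genes, 1555 none and 20380 exactly 1, and only the last were used, as 12393 genes. Symbols come from the platform's probe table, checked against RefSeq by Entrez number (0 changed). Log2 ratios, floor, bounds and calls were computed in Python 3.11.15 with numpy 2.4.6 and pandas 2.3.3, and figures with matplotlib 3.10.9. The procedure was tested on simulated data. No test between populations was possible with 1 array each.

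The members, the 16 lists and the naming rule were chosen with earlier results of these data known. All 7 members are named. Further ETS genes and partners could be named freely, other lists by genes at least 2-fold apart, and pattern neighbours as the 5 nearest to Spic and 3 nearest to each other member. The alternatives moved the floor to the 25th or 75th percentile or removed it, added a pseudocount in its place, or used quantile normalization, equal medians or the mean, lowest or unshared probe sets. Taking the highest probe set with _x_at sets included was added after seeing the data. Groups were taken from the labels. Serum response genes, DC, monocyte, B cell and granulocyte markers are given in the closing section.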

Additional observations from a re-analysis of the deposited data

How the results depend on the processing

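The Spic ratio over each other population stayed past 2-fold under all alternatives that could give it, with log2 values of 1.97 (CD11b+ cells), 3.19 (CX3CR1- cells) and 3.19 (DCs) as reported. With the floor at the 75th percentile (a signal of 453) all 3 were 1.05, by construction, since the other side was then under the floor. With _x_at sets included they were 3.62 over the CX3CR1- cells and 4.39 over the DCs. Over the DCs the value was 5.001 with the floor at the 25th percentile or with none, 4.201 with a pseudocount and 3.79 with the mean over probe sets. Spic has only probe sets of shared types, so leaving these out gave no Spic value, and the counts of members at least 2-fold apart fell from 1 to 0 in the 3 pairs without DCs. The counts that changed most were those of the higher floor (from 4 to 2 for CX3CR1high macrophages over DCs, 1 to 0 for CD11b+ over CX3CR1- cells, 5 to 3 for CD11b+ cells over DCs and 2 to 1 for CX3CR1- cells over DCs), of the lowest probe set (4 to 2, 5 to 2 and 2 to 1 for the pairs with DCs) and of the mean over probe sets (5 to 3 and 2 to 1 for CD11b+ and CX3CR1- cells over DCs). Smaller changes in the pairs with DCs were from 4 to 5 at equal medians and to 3 with the mean or without shared types (CX3CR1high macrophages), from 5 to 4 without shared types (CD11b+ cells), and from 2 to 3 with the 25th percentile floor, no floor or a pseudocount (CX3CR1- cells). With the probe set choices, Ets1 and Elk3 have sets under the floor, and the second Fli1 set, above the floor throughout, has smaller ratios. The members' median log2 ratio over the DCs moved from 1.75 to 0.56 (higher floor), 0.80 (mean), 0.98 (without shared types) and 0.22 (lowest set) for the CX3CR1high macrophages, and from 1.21 to 0.28 (higher floor and lowest set) and 0.55 (mean) for the CD11b+ cells. Ets2 kept its calls under all 10 alternatives, from 2.81 to 3.89 over the DCs. Of the 14 called member ratios, 9 stayed past 2-fold under all alternatives that gave them and 5 did not. With the floor at the 75th percentile, log2 ratios over the DCs fell under 1 for Ets1 and Elk3. Ets1 gave 0.56 (CX3CR1high macrophages) and 0.21 (CX3CR1- cells), and Elk3 0.88 (CX3CR1high macrophages). The mean over probe sets ended the Ets1 calls and that of Fli1, which the lowest set also ended. No called ratio changed sign. No paired analysis was possible because each population has 1 array, and no array could be left out for the same reason.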

Other observations

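Signals of 3 genes of the partner list, Gata1, Gata2 and Bach2, were chosen for description after their values were seen. Gata1, which encodes an erythroid, mast cell and eosinophil factor that opposes PU.1, had signals of 214 (CD11b+ cells) and 273 (CX3CR1- cells), while the CX3CR1high macrophages (83.0) and the DCs (47.9) lay under the floor. The CX3CR1- cells were at least 2.65-fold above both of these. Gata2 gave 222 in the CX3CR1- cells, at least 2.16-fold above the CX3CR1high macrophages (99.3) and the DCs (64.1), with 116 in the CD11b+ cells. Bach2 passed the floor only in the CX3CR1- cells, at 197. Of the 10 neutrophil and mast cell markers, 7 (Cxcr2, Mpo, Elane and the mast cell genes Cpa3, Cma1, Tpsb2 and Fcer1a) were under the floor on all arrays, and the list summed to 2042, 8871, 650 and 257 in the CX3CR1high macrophages, CD11b+ cells, CX3CR1- cells and DCs.

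Genes of the serum response, which the ELK factors control with SRF and which also answer to the handling of cells, were read from a list of 10. Of 9 with a ratio, 5 were higher and 0 lower in the CX3CR1high macrophages over the DCs (median log2 ratio 1.14), beside 17.4% of all genes higher, and the other 4 were under 2-fold, while 0 were called against the CD11b+ cells (median -0.43) or the CX3CR1- cells (median 0.06). Ier3 stood at 20204, 22277, 10453 and 3563 in the CX3CR1high macrophages, CD11b+ cells, CX3CR1- cells and DCs, and Egr2 at 773, 1040, 744 and 230. Srf itself was under 2-fold in all pairs, from 462 in the CX3CR1high macrophages to 702 in the CX3CR1- cells. Of the 9 measured DC markers, 9 were at least 2-fold higher in the DCs than in the CX3CR1high macrophages, beside 10.2% of all genes. The DC list summed to 4652, 3426, 15059 and 33534. The 5 monocyte markers summed to 18654, 40529, 22746 and 12275, and the 7 B and plasma cell markers to 18941, 34879, 10716 and 10395, most of it Jchain.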
